A study of Mus musculus with 6 samples.

Results

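The 9 genes described here, Ccl5, Ccl6, Ccl9, Ccl20, Ccl25, Ccl28, Cxcl10, Il15 and Il18, encode secreted chemokines and cytokines with known links to the intestinal epithelium or its lymphocytes. They were taken by symbol from the 32285 genes of 6 single-cell RNA-seq libraries, and each symbol matched 1 gene. The libraries held ileal crypt cells of mice on the C57BL/6J background, 8 to 12 weeks old, sorted by the epithelial surface protein EpCAM. Of these, 3 came from Fpr2f/f mice (f/f 1 to f/f 3), in which both Fpr2 alleles carry loxP sites, and 3 came from Fpr2VKO mice (VKO 1 to VKO 3), numbered by replicate, which carry the same alleles and Cre under the Villin promoter, active in intestinal epithelial cells (IECs) and not in leukocytes. The sample labels give the genotypes as WT and intestinal epithelial Fpr2 knockout, and the names Fpr2f/f and Fpr2VKO are those of the study. FPR2 senses formylated peptides, and the study asked what its loss does to crypt cells. No Fpr2 UMI (unique molecular identifier, marking 1 captured transcript) was found in any barcode of the 6 libraries, so the genotype labels could not be checked on this gene.

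Chemokines bind G protein-coupled receptors on leukocytes and draw them into tissue, whereas IL-15 and IL-18 act on lymphocytes through cytokine receptors. In the small intestine CCL25 calls in lymphocytes that carry CCR9, CCL28 those with CCR10, and CCL20 cells with CCR6. CCL6 and CCL9 are ligands of CCR1, CCL5 is also a product of cytotoxic T cells, and CXCL10 is an interferon-induced ligand of CXCR3. IL-15 maintains intraepithelial lymphocytes, and IL-18 is released after cleavage by caspase-1 in the inflammasome.

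Total depth was 90142126 to 189516114 UMIs per library, and 17104 barcodes passed the limits of 1000 UMIs, 500 genes and 20% mitochondrial UMIs. After removal of 428 predicted doublets 16676 cells remained, 9903 of them from Fpr2f/f and 6773 from Fpr2VKO mice. The mitochondrial limit removed 65.7 to 78.0% of the barcodes that met the UMI and gene limits in Fpr2f/f and 76.1 to 90.1% in Fpr2VKO libraries. Median UMIs of kept barcodes were 3033 to 4612 in Fpr2f/f and 6358 to 6728.5 in Fpr2VKO libraries. Any pair of libraries shared 0 to 23 barcodes, at most 1.03% of the smaller library. Cells fell into 30 clusters, named from marker genes with the 9 genes left out of the clustering, and 5385 cells stayed unnamed. Levels are given as CPM (UMIs of a gene per 1000000 UMIs of the same cells), with SD over libraries. Levels are compared between cell classes for the same gene, and since genes of all cells made the clusters, these comparisons are descriptions without a test.

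Ccl5, Ccl9 and Ccl6 are neighbours on chromosome 11 (GRCm38, minus strand). Ccl5 spans chr11:83525778-83530518, Ccl9 chr11:83572919-83578636 and Ccl6 chr11:83587882-83593087, with 42400 bases between Ccl5 and Ccl9 and 9245 bases between Ccl9 and Ccl6. Windows around a start site (250 bases before it and 50 from it) were given by RefSeq (GRCm38.p6) for 7 of the 9 genes, all but Ccl5 and Il15. The windows of Ccl6 (chr11:83593038-83593337) and Ccl9 (chr11:83578587-83578886), both on the minus strand, are shown because these genes had closely similar patterns over cell classes. Capitals mark their best ungapped match, in which 36 of 40 bases were identical (90.0%).
Ccl6: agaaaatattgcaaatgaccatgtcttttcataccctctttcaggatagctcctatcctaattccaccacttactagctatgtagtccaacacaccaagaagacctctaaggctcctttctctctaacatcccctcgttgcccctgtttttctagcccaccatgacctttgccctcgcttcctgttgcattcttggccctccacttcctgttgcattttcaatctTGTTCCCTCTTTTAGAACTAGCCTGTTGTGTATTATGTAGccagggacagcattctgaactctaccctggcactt
Ccl9: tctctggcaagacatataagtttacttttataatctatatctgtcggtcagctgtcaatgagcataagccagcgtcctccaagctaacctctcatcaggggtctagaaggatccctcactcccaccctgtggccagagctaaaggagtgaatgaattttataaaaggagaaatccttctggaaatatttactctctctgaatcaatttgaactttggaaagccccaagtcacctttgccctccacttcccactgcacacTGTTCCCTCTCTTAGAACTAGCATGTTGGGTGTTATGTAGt
The match lay at positions -25 to 15 of the Ccl6 window and at positions 10 to 49 of the Ccl9 window, counted from the annotated start with no position 0.

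The windows of Ccl20 (chr1:83116516-83116815, plus strand) and Cxcl10 (chr5:92348840-92349139, minus strand) are shown because these genes are textbook targets of NF-kB. Their UMIs were concentrated in few cells, which was not particular to them. The top 1% of cells held 54.2 to 98.7% of Ccl5 and 44.0 to 70.3% of Ccl9 UMIs. Capitals mark matches to the NF-kB motif, found in 4.51% of all 32851 RefSeq windows, and to the interferon-stimulated response element (ISRE) GAAANNGAAA, found in 3.44%. Both strands were searched.
Ccl20: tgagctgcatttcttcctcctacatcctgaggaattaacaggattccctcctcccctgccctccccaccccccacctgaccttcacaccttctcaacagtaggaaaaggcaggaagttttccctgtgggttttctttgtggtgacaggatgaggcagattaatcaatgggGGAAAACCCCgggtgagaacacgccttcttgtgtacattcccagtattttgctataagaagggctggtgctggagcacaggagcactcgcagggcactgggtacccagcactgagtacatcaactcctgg
Cxcl10: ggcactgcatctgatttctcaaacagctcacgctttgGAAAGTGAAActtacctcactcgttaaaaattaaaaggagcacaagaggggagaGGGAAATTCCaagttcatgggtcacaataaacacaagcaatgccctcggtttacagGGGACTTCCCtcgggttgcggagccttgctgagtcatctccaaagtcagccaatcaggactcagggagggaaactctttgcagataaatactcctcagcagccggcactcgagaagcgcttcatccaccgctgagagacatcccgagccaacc
Ccl20 held 1 NF-kB match, which began at position -80. The Ccl9 window above held 1 NF-kB match too, at -35. Cxcl10 held NF-kB matches at -159 and -103 and an ISRE match at -213.

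The source of the 9 transcripts differed by lineage. Ccl5 lay almost wholly in T cell-like cells, Ccl6 and Ccl9 in goblet-like and Paneth-like cells, and Ccl25, Il18, Ccl20 and Il15 were highest in enterocyte-like cells, whereas Ccl28 and Cxcl10 had no class that led in every library. A class led in all 6 libraries for Ccl5, Ccl6, Ccl9, Ccl20, Ccl25 and Il18, and in 5 of 6 for Il15. Levels and shares cover kept cells only. Before doublet removal, kept barcodes held 45.3 to 65.3% of Ccl5, 54.4 to 70.5% of Ccl6 and 52.8 to 71.0% of Ccl9 UMIs. They held 33.2 to 49.3% for Ccl28, 27.9 to 47.9% for Il18 and 21.8 to 45.1% for Ccl25. For Ccl20, Il15 and Cxcl10 it was 22.5 to 37.6, 20.1 to 35.9 and 16.8 to 37.6%. Barcodes removed by the mitochondrial limit held 37.3 to 45.6, 40.6 to 50.7 and 38.3 to 58.1% for these genes.

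**Figure D1:**
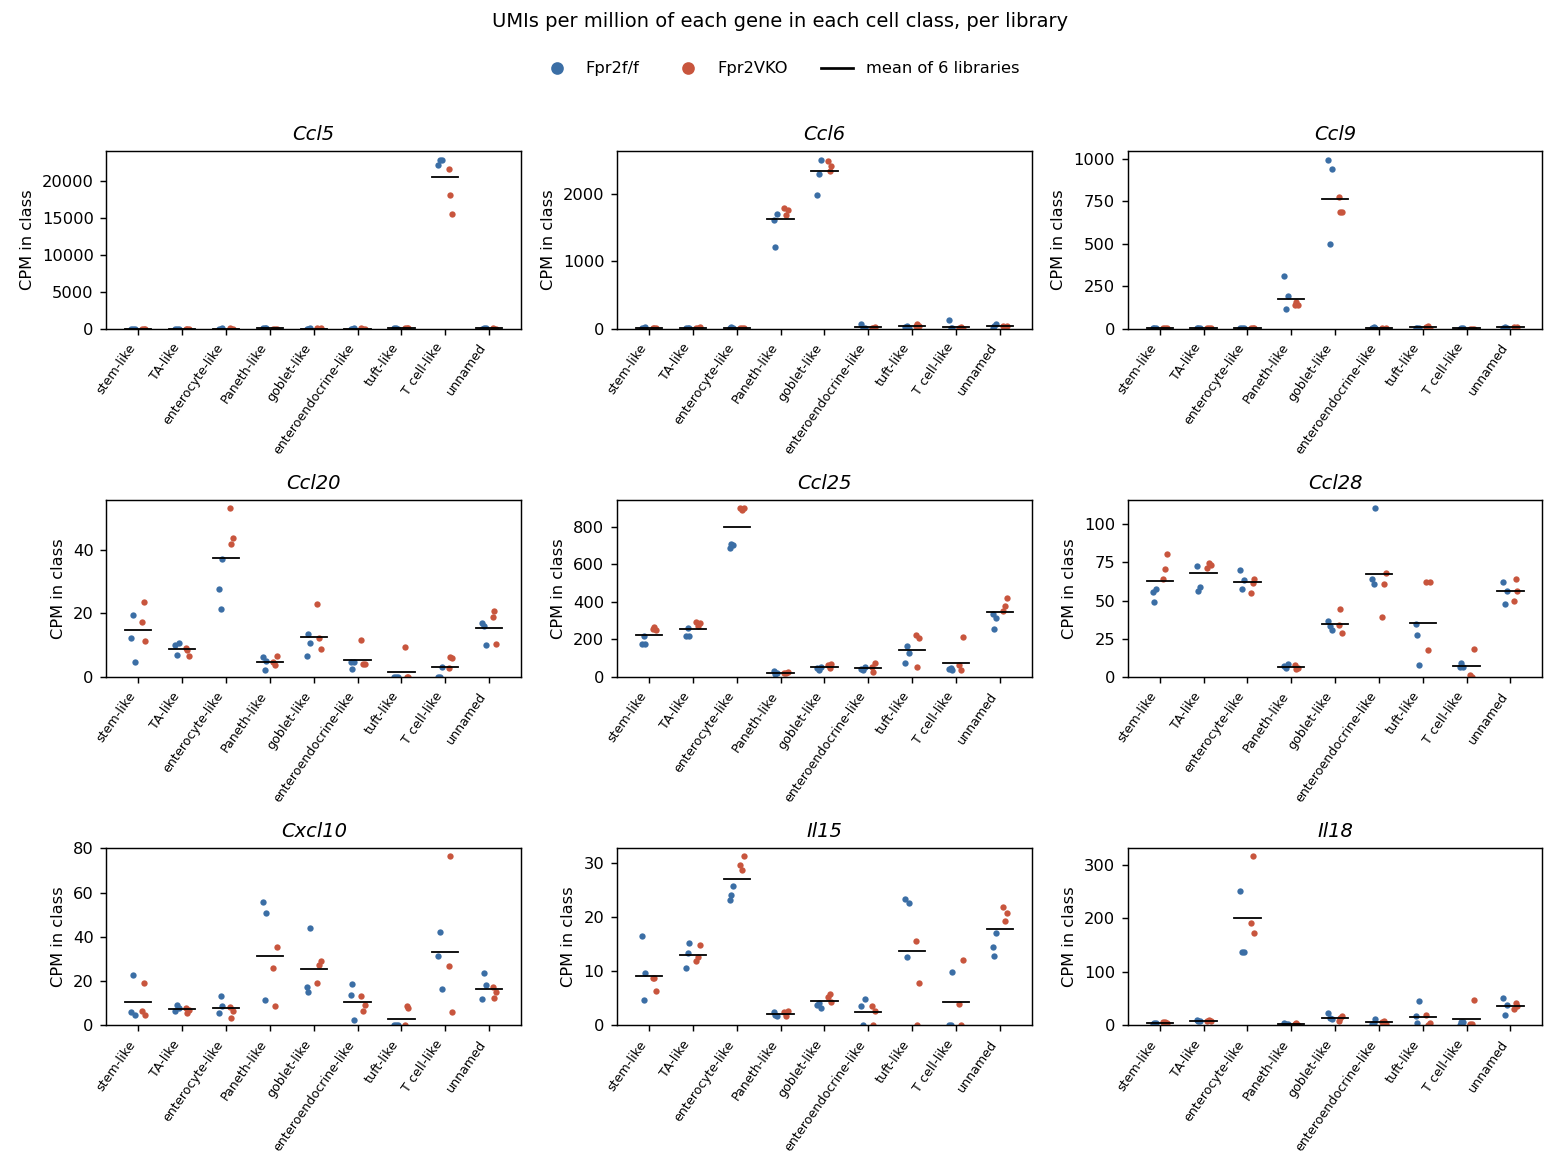
CPM (linear axis from 0, a different scale for each gene) of the 9 genes in 9 cell classes, with a point for each library coloured by genotype and a bar at the mean of 6 libraries. Ccl5 stood out in T cell-like cells (mean 20451 CPM), Ccl6 and Ccl9 in Paneth-like and goblet-like cells, and Ccl25, Ccl20, Il15 and Il18 in enterocyte-like cells.

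T cell-like cells numbered 278 (19 to 81 per library) in spite of the EpCAM sort, and their 12 T cell markers summed to 23895 to 42898 CPM, against 3.24 to 11.5 CPM over epithelial cells. Ccl5 in these cells was 22055, 22780 and 22817 CPM in f/f 1, 2 and 3 and 21527.5, 18082 and 15446 CPM in VKO 1, 2 and 3. All Fpr2VKO values were below all Fpr2f/f values, as for 5.04% of the 5203 genes tested in this class (4.73% were above, 9.76% in either direction). The fit left out VKO 3, which had 19 T cell-like cells, and gave a log2 fold change of -0.19 ± 0.15 (SE, edgeR adjusted p = 1.00). The T cell markers moved with it (32764 to 42898 CPM in f/f and 23895 to 34413 CPM in VKO libraries), and their part in the result was not tested. T cell-like cells made up 1.75% of cells and held 98.0 ± 0.844% of Ccl5 UMIs (SD, n = 6 libraries), and 74.7 to 99.4% under 7 alternatives. In cells thinned to 2000 UMIs, 94.5% of T cell-like cells had a Ccl5 UMI, against 0.505 to 2.90% in the epithelial classes.

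The mean Ccl5 level of the epithelial classes was 2.03 to 10.7 CPM, with a highest value in any library of 20.1 CPM. Barcodes under 100 UMIs, which mostly hold free RNA, had 78.6 to 257 CPM of Ccl5. Whether the few Ccl5 UMIs of epithelial cells came from free RNA was not tested.

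Ccl6 and Ccl9 were highest in goblet-like and Paneth-like cells. In the other secretory classes, enteroendocrine-like and tuft-like cells, Ccl6 was 22.2 and 33.1 CPM and Ccl9 3.69 and 6.51 CPM. Ccl6 in goblet-like cells was 1991, 2297 and 2512 CPM in f/f 1 to 3 and 2496, 2338 and 2419 CPM in VKO 1 to 3. In Paneth-like cells it was 1617, 1218 and 1698 CPM in f/f and 1798, 1682 and 1769 CPM in VKO libraries. Goblet-like cells were above Paneth-like cells in all 6 libraries (2342 ± 192 against 1630 ± 212 CPM), and the next value was 35.0 CPM in unnamed cells. The genotypes overlapped in both classes.

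Ccl9 in goblet-like cells was 994, 498 and 941 CPM in f/f and 772, 686 and 685 CPM in VKO libraries. Paneth-like cells had 309, 113 and 192 CPM in f/f and 140, 158 and 137 CPM in VKO libraries. Thus the goblet-like mean was 4.36-fold the Paneth-like mean for Ccl9 and 1.44-fold for Ccl6, and f/f 2 was lowest for Ccl9 in both classes. Goblet-like cells held 71.3 ± 6.45% of Ccl9 UMIs and Paneth-like cells 25.4 ± 6.27%, while Ccl6 UMIs were split 46.5 ± 9.34% and 50.3 ± 9.85%. The goblet-like share of Ccl9 UMIs ran from 38.9% (mitochondrial limit of 10%) to 77.9% over 7 alternatives, and was 47.5% at clustering resolution 2.

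After thinning, 82.5% of Paneth-like and 61.8% of goblet-like cells had a Ccl6 UMI. This goes against the CPM, so no order between the classes is read from it. Goblet-like clusters differed among themselves: Ccl6 was 2935 ± 326 CPM in the Zg16 cluster (median 23785.5 UMIs per cell) and 1464 ± 324 CPM in the shallower Fcgbp cluster (3515 UMIs). It was 998 ± 547 CPM in the shallow Ern2 cluster (2600 UMIs) and 651 ± 504 CPM in the small but deep Atoh1 cluster (23046.5 UMIs, 3 libraries). Ccl9 in the same 4 clusters was 971 ± 278, 242 ± 59.8, 242 ± 80.2 and 542 ± 131 CPM, higher in the deep Zg16 and Atoh1 clusters. The part of depth per cell in these levels was not tested. Both genes are also known from myeloid cells. The 10 myeloid markers summed to 5.31 to 8.53 CPM in goblet-like and 7.41 to 15.2 CPM in Paneth-like cells.

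**Figure D2:**
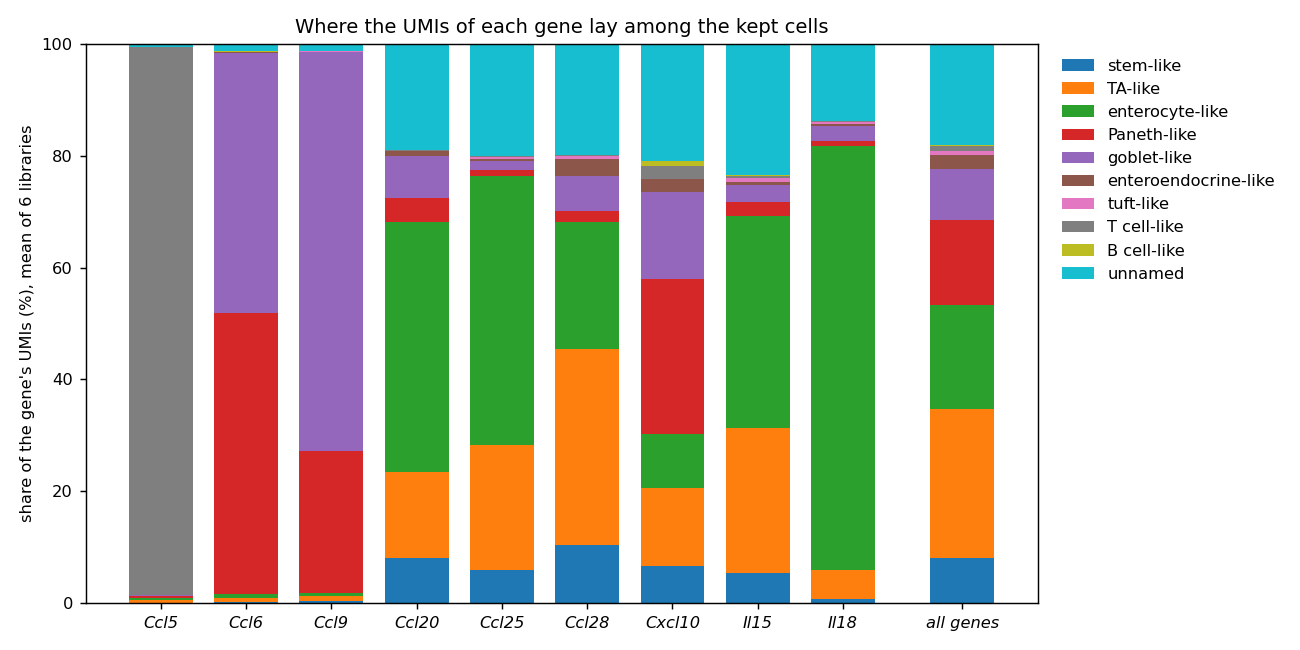
Share of each gene's UMIs in kept cells (%, mean of 6 libraries) by cell class in stacked bars from 0 to 100%, with the share of all UMIs in the last bar. T cell-like cells filled the Ccl5 bar (98.0%), goblet-like and Paneth-like cells the Ccl6 and Ccl9 bars, and enterocyte-like cells most of the Il18 bar (75.8%).

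Ccl25, Il18, Ccl20 and Il15 made up the enterocyte group. Ccl25, the CCR9 ligand gene, was 796 ± 108 CPM there, and every library lay above every other class and library (the next class, unnamed cells, reached 421 CPM). It was 257 ± 33.4 CPM in TA-like and 223 ± 40.1 CPM in stem-like cells, and was lowest in Paneth-like cells (23.1 ± 5.25 CPM). TA-like exceeded stem-like cells in all 6 libraries, although their ranges overlapped. In T cell-like cells, which are not known to make it, Ccl25 was 38.2 to 211 CPM, and free RNA carried 151 to 253 CPM. The stem-like mean lay within the free RNA range, and the part of free RNA in these levels was not tested. Among clusters, Ccl25 was 967 ± 105 CPM in the Fabp1 enterocyte-like cluster (median 31260 UMIs) and 740 ± 68.5 CPM in the deep Fabp6 cluster (27071 UMIs). The shallow Fabp6 and Celf2 enterocyte-like clusters had 562 ± 126 and 475 ± 133 CPM. Their ranges overlapped those of unnamed clusters led by Gsdmc4 (521 ± 40.5 CPM) and Eif5a (446 ± 72.5 CPM), so the gap between classes did not hold for every cluster.

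Il18 was the most enterocyte-biased of the 9 genes by share of UMIs, with 75.8 ± 5.58% in enterocyte-like cells, which held 18.6% of all UMIs. Its level there was 251, 137 and 136 CPM in f/f and 191, 316 and 172 CPM in VKO libraries, so genotypes overlapped. The next class, unnamed cells, had 36.3 ± 10.6 CPM. The Fabp1 cluster had 304 ± 56.9 CPM of Il18 and the deep Fabp6 cluster, of similar depth, 111 ± 32.3 CPM, with ranges that did not overlap (250.1 to 375 and 77.6 to 156 CPM).

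Ccl20 was 37.5 ± 11.5 CPM in enterocyte-like cells and 15.5 ± 4.41 CPM in unnamed cells, and stem-like, goblet-like and unnamed cells did not differ beyond their spread. Stem-like and goblet-like cells had 14.8 and 12.4 CPM, and Paneth-like, T cell-like and tuft-like cells 4.70, 3.06 and 1.55 CPM. Free RNA carried 11.1 to 16.2 CPM of Ccl20, and its part in the levels outside enterocyte-like cells was not tested. The UMIs of Ccl20 were uneven, with 42.4 to 55.4% in the top 1% of cells and up to 124 UMIs in 1 enterocyte-like cell of VKO 1. Il15 was 27.0 ± 3.24 CPM in enterocyte-like, 17.7 ± 3.54 CPM in unnamed and 13.05 ± 1.73 CPM in TA-like cells, and free RNA carried 9.22 to 10.99 CPM. Of the clusters with all 6 libraries it was highest in an unnamed one led by Fabp6, at 50.9 ± 16.8 CPM on 123 UMIs. Tuft-like cells led for Il15 in 1 library on 22 UMIs in all.

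Ccl28 was spread over the crypt classes. Free RNA carried 20.6 to 27.0 CPM of Ccl28, and its part in the class levels was not tested. TA-like (67.8 ± 7.98), enteroendocrine-like (67.2 ± 23.4), stem-like (63.0 ± 11.4) and enterocyte-like cells (61.9 ± 5.38 CPM) did not differ beyond their spread. Goblet-like cells had 34.6 ± 5.55 CPM, and Paneth-like cells 6.62 ± 1.35 CPM, lower in each library than any library of goblet-like cells. Enteroendocrine-like cells were not uniform: the Gcg cluster (119 cells) had 141 ± 38.9 CPM and the Chgb cluster (280 cells) 39.1 ± 11.6 CPM, without overlap (94.1 to 204 and 20.6 to 56.8 CPM). The Gcg cluster had the highest Ccl28 mean of the 30 clusters.

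Cxcl10 had no named class that led in every library. T cell-like cells led in 3 libraries (33.2 ± 24.5 CPM on 69 UMIs) and Paneth-like cells in the other 3 (31.3 ± 19.5 CPM on 841 UMIs), and both overlapped goblet-like cells (25.3 ± 10.7 CPM). In Paneth-like cells Cxcl10 was 55.6, 11.7 and 50.6 CPM in f/f and 25.9, 8.78 and 35.3 CPM in VKO libraries. Clusters within a class differed: Cxcl10 was 52.4 ± 35.4 CPM in the Itln1 Paneth-like cluster and 7.16 ± 7.34 CPM in the Defa21 one. An unnamed cluster of 1095 cells led by Celf2 had 57.3 ± 13.0 CPM (41.8 to 72.0 over 6 libraries, 309 UMIs, a median of 4469 UMIs per cell). Only 5.33 to 9.52% of cells had a Cxcl10 UMI, and the top 1% of cells held 41.6 to 60.8% of its UMIs.

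The genes most like each member over 53 sums of 9 classes and 6 libraries (Pearson r of log2(CPM + 1), among 9477 genes, without the 19 T cell-like cells of VKO 3) followed the same split. These r values are descriptions, since the sums share libraries and cells. Ccl5 was most like Cd3d (r = 0.97), Cd3e and Ctsw, which are T cell genes. Ccl6 was most like the goblet cell gene Spink4 (r = 0.97), Muc2, which encodes the main intestinal mucin, and Ramp1, and Ccl9 was most like Spink4 (r = 0.93), Qsox1 and Galnt5. Ccl6 and Ccl9 had r = 0.91 with each other. Ccl25 followed Tkfc, Prap1 and Lad1 (r = 0.96, 0.95 and 0.94). Il18 followed Mep1b, a brush border protease gene (r = 0.91), Igsf9 and Abcg5. Il15 was most like Mgst1 (r = 0.86), H2-T3 and 1810065E05Rik, and it had r = 0.82 with Ccl25. Ccl28 was most like Yes1 (r = 0.92), Slc25a39 and Zfyve9. The likeness was lower for Ccl20, with Kdelr1 (r = 0.77), Dhrs1 and the NF-kB inhibitor gene Nfkbia, and for Cxcl10, with Ifrd1 (r = 0.76), Ly6e and Tent5c.

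Receptors and processing genes placed the ligands in context. Ccr9, the CCL25 receptor gene, was 140 ± 34.3 CPM in T cell-like cells and 1.00 to 1.15 CPM over epithelial cells. Il15ra, which presents IL-15 to lymphocytes, was highest in enterocyte-like cells (19.2 ± 1.72 CPM), the class that led for Il15. The IL-18 receptor gene Il18r1 was highest in enteroendocrine-like cells (79.0 ± 30.8 CPM). Of the IL-18 processing genes, Pycard (1041 ± 71.8 CPM), Casp1 (245 ± 20.4 CPM) and Nlrp6 (165 ± 11.3 CPM) were highest in enterocyte-like cells, as was Il18, whereas Nlrc4 was highest in goblet-like cells (143 ± 16.4 CPM). The other chemokine with the highest mean over epithelial cells was Cx3cl1, at 49.6 ± 7.20 CPM in goblet-like cells.

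Over all epithelial cells, none of the 9 genes differed between genotypes at an adjusted p under 0.05 in edgeR's quasi-likelihood test, against 0.0363% of the 16510 genes tested (6 genes). DESeq2 also called 0, and at an unadjusted p under 0.05 edgeR gave 2 of 9, as it did for 8.98% of all genes tested. These were Ccl20, at 13.5, 11.96 and 15.5 CPM in f/f and 20.5, 17.7 and 14.7 CPM in VKO libraries (log2 fold change 0.42 ± 0.14, edgeR adjusted p = 0.424), and Ccl25, at 276, 261 and 302 CPM in f/f and 345, 326 and 346 CPM in VKO libraries (0.32 ± 0.11, edgeR adjusted p = 0.443). Ccl25 was higher in all 3 Fpr2VKO than in all 3 Fpr2f/f libraries, as were 3.36% of all genes tested, and the ranges of the other 8 genes overlapped (10.2% of all genes were lower in all Fpr2VKO libraries, 13.6% did not overlap in either direction). At a mitochondrial limit of 10% the direction turned for 6 of 9 genes over epithelial cells, Ccl25 among them (-0.21). The other log2 fold changes ran from -0.38 (Ccl5) to 0.34 (Ccl6), none of them called. Single libraries moved these values: Ccl5 was -1.12 without VKO 1 and -0.0349 without VKO 2, and Ccl6 was 0.0965 without f/f 1 and 0.50 without f/f 2 (1.13 at the 10% limit). The median of the 9 was 0.18 and that of all genes tested -0.0033. The methods give 3 mice per group, each library is taken to be 1 mouse, and p-values measure the spread between these libraries.

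**Figure D3:**
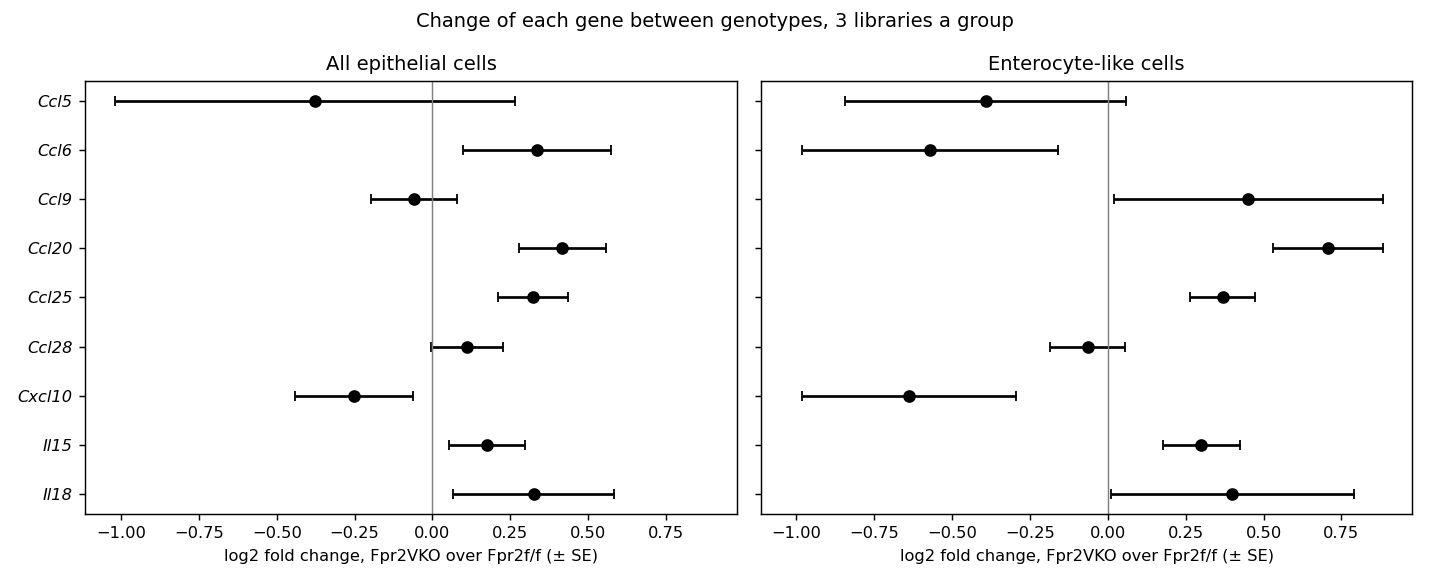
Log2 fold change (Fpr2VKO over Fpr2f/f, linear axis) with SE for the 9 genes over all epithelial cells and in enterocyte-like cells, edgeR on 3 libraries a group. No point passed the adjusted threshold. Ccl20 and Ccl25 lay to the right in both panels, at 0.42 and 0.32 in epithelial cells and 0.71 and 0.37 in enterocyte-like cells.

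In enterocyte-like cells Ccl25 was 685, 708 and 699 CPM in f/f 1 to 3 and 899, 886 and 898 CPM in VKO 1 to 3. The groups did not overlap, but the gene did not pass the test (log2 fold change 0.37 ± 0.10, edgeR adjusted p = 0.188). Ccl20 was 27.6, 21.4 and 37.2 CPM in f/f and 53.2, 42.0 and 43.7 CPM in VKO libraries (0.71 ± 0.18, edgeR adjusted p = 0.155). Of the 361 Ccl20 UMIs behind the VKO 1 value, 124 lay in 1 cell, and values without this cell were not computed. Il15 was 23.0, 24.1 and 25.7 CPM in f/f and 29.6, 28.6 and 31.1 CPM in VKO libraries (0.30 ± 0.12, edgeR adjusted p = 0.313). For these 3 of 9 genes every Fpr2VKO library was above every Fpr2f/f library, as for 9.08% of the 11713 genes tested (19.1% in either direction), and 0 of 9 was called, against 0.0256% of all genes (0.0171% called as higher in Fpr2VKO). DESeq2 called Ccl20 (adjusted p = 0.0470), as did edgeR without the filter on low counts or without f/f 3 (adjusted p = 6.6e-04 and 0.0211). The shares of all genes called in enterocyte-like cells under these settings are not given here. At a mitochondrial limit of 10% the log2 fold change of Ccl20 turned to -0.09 and that of Il15 fell to 0.02 ± 0.37, whereas that of Ccl25 stayed between 0.31 and 0.40 under all 17 alternatives.

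The enterocyte-like class held different cells in the 2 groups. The Fabp1 cluster, in which Ccl25 and Il18 were highest, made up 6.09 to 13.2% of it in Fpr2f/f and 20.6 to 45.7% in Fpr2VKO libraries, and the 12 enterocyte markers summed to 8537 to 11478 and 11092 to 14926 CPM. Median depth was 31260 and 27071 UMIs in the Fabp1 and deep Fabp6 clusters and 2781 and 3056 UMIs in the Celf2 and shallow Fabp6 clusters. The part of make-up, depth or free RNA in the class differences was not tested. Within the Fabp1 cluster (cluster 10) Ccl25 was 850, 1107 and 852 CPM in f/f and 1060, 968 and 965.4 CPM in VKO libraries, a log2 fold change of 0.06 ± 0.13 (edgeR adjusted p = 0.998). In the deep Fabp6 cluster (cluster 17) it was 702, 767 and 672 against 781, 674 and 843 CPM (0.09 ± 0.13). In the shallow clusters it was 0.52 ± 0.18 (cluster 1, led by Celf2, edgeR adjusted p = 0.378) and 0.34 ± 0.17 (cluster 4, led by Fabp6, adjusted p = 0.952). The groups did not overlap in cluster 1 (336 to 449 against 463 to 706 CPM) and overlapped in the other 3. Ccl20 was also highest in cluster 10, at 35.2, 29.6 and 72.7 CPM in f/f and 90.0, 52.5 and 52.3 CPM in VKO libraries, where the groups overlapped (0.49 ± 0.44). In VKO 1, 124 of the 327 Ccl20 UMIs of cluster 10 lay in 1 cell. The log2 fold change of Ccl20 was -0.24 ± 0.35 in cluster 4 and -0.46 ± 0.77 in cluster 17, and the gene did not pass the filter in cluster 1. For Il15 it was 0.51 ± 0.22 in cluster 10 (edgeR adjusted p = 0.867), 0.33 ± 0.21 in cluster 17, 0.23 ± 0.31 in cluster 4 and -0.27 ± 0.44 in cluster 1. Il15 in cluster 10 was 11.7, 27.3 and 16.9 CPM in f/f and 28.1, 27.2 and 29.9 CPM in VKO libraries, with overlap. Of 25 pairs of a member and an enterocyte-like cluster 0 was called and 3 had an unadjusted p under 0.05 in edgeR, as did 5.60% of all gene and cluster pairs (DESeq2 was not run on clusters), with 0.0738, 0.0436, 0.0417 and 0.0217% of genes called in clusters 1, 4, 10 and 17.

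**Figure D4:**
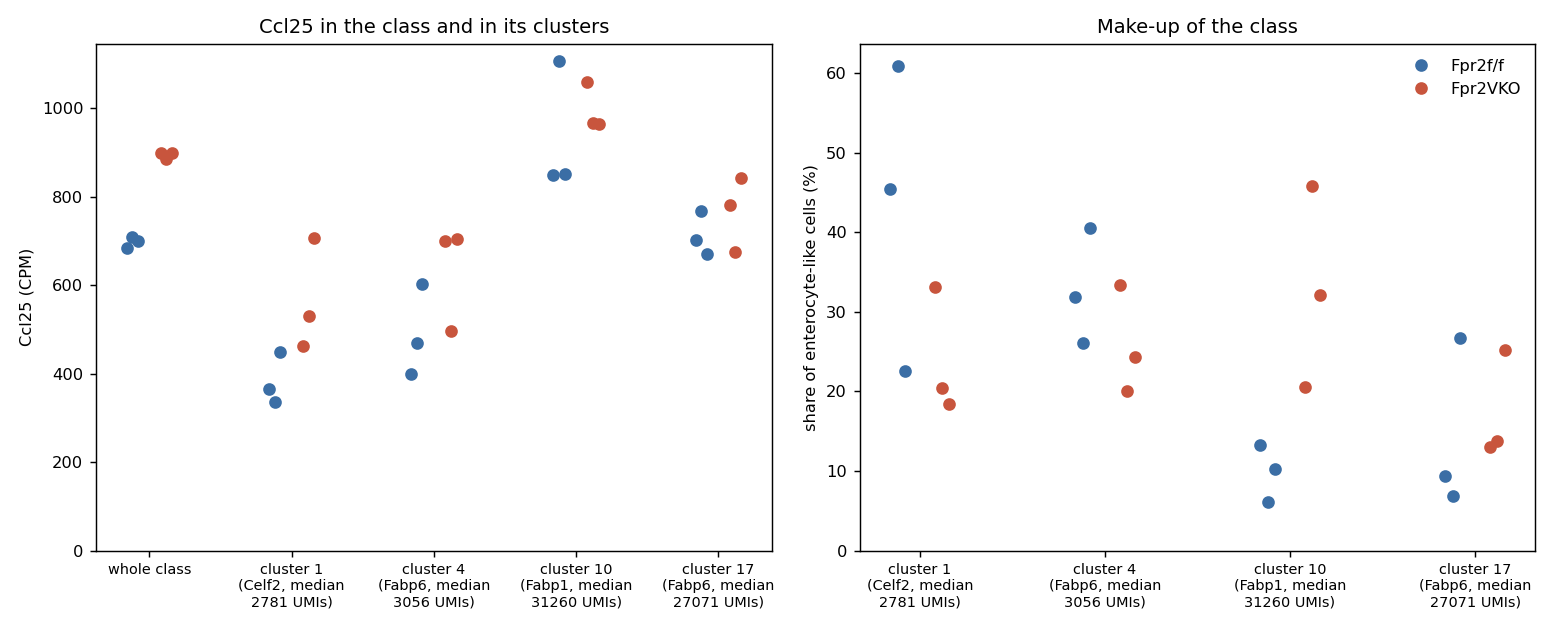
Left, Ccl25 (CPM, linear axis from 0) in each library over all enterocyte-like cells and in the 4 clusters of the class. Right, share (%) of enterocyte-like cells in each cluster. The groups were apart over the whole class (685 to 708 against 886 to 899 CPM) and in cluster 1 (336 to 449 against 463 to 706 CPM), and overlapped in clusters 4, 10 and 17 (log2 fold changes of 0.34, 0.06 and 0.09, beside 0.52 in cluster 1). Cluster 10 held a larger share in Fpr2VKO libraries, and the part of this in the class difference was not tested.

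Over the 60 pairs of a member and a cell class that passed the filter on low counts, of 81, 1 was called and 9 had an unadjusted p under 0.05 in edgeR, as did 7.03% of all pairs of a gene and a class. The called pair was Ccl5 in Paneth-like cells, which was 6.32, 7.85 and 6.60 CPM in f/f and 3.29, 1.25 and 1.55 CPM in VKO libraries (log2 fold change -1.92 ± 0.33, edgeR adjusted p = 0.00200), against 0.173% of the 9268 genes tested in Paneth-like cells. It rested on 149 UMIs. Of thinned Paneth-like cells 2.52 ± 2.19% had a Ccl5 UMI in f/f and 0.355 ± 0.614% in VKO libraries (two-sided exact permutation p = 0.4). Thinned to 5000 UMIs the shares were 5.49 ± 0.666 and 1.65 ± 1.43% (exact p = 0.1, the smallest possible). The 12 T cell markers moved with it in Paneth-like cells, at 9.48 to 16.4 CPM in f/f and 3.01 to 9.21 CPM in VKO libraries, and their part in the result was not tested. Free RNA had 88.3, 159 and 257 CPM of Ccl5 in f/f and 180, 78.6 and 89.1 CPM in VKO libraries. The call was lost without f/f 2 (edgeR adjusted p = 0.118) and at mitochondrial limits of 10% (adjusted p = 0.103) and 40% (adjusted p = 0.999), and DESeq2 gave no adjusted p for it. The fold change stayed between -2.34 and -1.44 over 17 alternatives, and the gene was called in 13 of them.

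In stem-like cells Ccl25 was 174, 216 and 176 CPM in f/f and 254, 263 and 252 CPM in VKO libraries, without overlap (log2 fold change 0.38 ± 0.13, edgeR adjusted p = 0.466, with 0.0387% of genes called in this class). Ccl28 there was 55.6, 48.9 and 57.8 against 64.3, 70.8 and 80.4 CPM (0.35 ± 0.15, adjusted p = 0.544 by edgeR). Neither was called. Ccl25, Ccl28 and Il18 (mean 3.32 against 5.32 CPM) were higher in all Fpr2VKO than in all Fpr2f/f libraries, as were 9.08% of the 10341 genes tested (4.87% were lower in all, 14.0% in either direction). The stem-like class held different cells in the 2 groups: its shallow Taco1 cluster made up 59.8 to 71.4% of it in Fpr2f/f and 28.0 to 44.7% in Fpr2VKO libraries. Ccl25 was 114 ± 35.3 CPM in that cluster and 253 ± 41.8 and 234 ± 33.1 CPM in the deep Olfm4 clusters, and Ccl28 was 34.8 ± 11.3, 81.6 ± 12.5 and 59.8 ± 13.3 CPM. Free RNA held 151, 162 and 180 CPM of Ccl25 in f/f and 253, 174 and 251 CPM in VKO libraries. Barcodes over the mitochondrial limit of 20% held 184, 216 and 215 CPM of it in f/f and 288, 223 and 308 CPM in VKO libraries. The part of make-up or free RNA in the stem-like differences was not tested. Ccl25 did pass at a mitochondrial limit of 40% (edgeR adjusted p = 0.0256), without alignment of libraries (0.00142) and at clustering resolution 0.5 (0.00109), and Ccl28 passed at that resolution (0.0331). The shares of all genes called in stem-like cells under these settings are not given here. These passes are therefore not read as a result about the members. At a mitochondrial limit of 10% the log2 fold change was 0.38 ± 0.21 for Ccl25 and fell to 0.04 ± 0.26 for Ccl28 (edgeR adjusted p = 0.946 and 0.997), and Ccl28 ran from 0.04 to 0.53 over 17 alternatives. Ccl25 had a log2 fold change of 0.29 ± 0.13 in TA-like, 0.40 ± 0.15 in goblet-like and 0.32 ± 0.16 in unnamed cells (edgeR adjusted p = 0.845, 0.363 and 0.986), and none of these passed. Il15 in unnamed cells was 14.5, 12.9 and 17.0 CPM in f/f and 21.9, 19.3 and 20.6 CPM in VKO libraries. Its log2 fold change of 0.45 ± 0.17 did not pass either (edgeR adjusted p = 0.986). Ccl6 and Ccl9 in goblet-like cells differed by 0.03 ± 0.12 and -0.23 ± 0.25 on the log2 scale (edgeR adjusted p = 0.961 and 0.850), with 0.161% of genes called, and Ccl28 in TA-like cells by 0.23 ± 0.13 (edgeR adjusted p = 0.992), with 0.0802% called. In enteroendocrine-like, tuft-like, T cell-like and unnamed cells 0 members were called, against 0.0111, 0.0250, 0.0769 and 0.00818% of genes, and over all kept cells 0 of 9, against 0.0179%.

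Whether the effect of genotype differed between 7 epithelial classes was tested with class by genotype terms and library as a block. None of the 9 genes passed (edgeR adjusted p from 0.748 for Ccl28 to 0.999 for Cxcl10), against 0.0354% of 14137 genes, and 2 had an unadjusted p under 0.05 (Ccl28 and Ccl5), as did 5.38% of all genes. An effect of any of these genes in 1 class was therefore not shown to differ from its effect in the others.

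The share of cells with a UMI, in cells thinned to 2000 UMIs (1573 Fpr2f/f and 641 Fpr2VKO cells were shallower and left out), was compared in the leading class of each gene. Ccl25 was detected in 59.8 ± 4.89% of enterocyte-like cells of Fpr2f/f and 72.5 ± 2.27% of Fpr2VKO libraries (71.0 and 87.3% before thinning), a difference of 12.7 points that was 13.0 at 1000 UMIs and 6.73 at 5000 UMIs, where the shares were 89.2 and 95.97%. Ccl6 was detected in 59.4 ± 1.31 and 64.2 ± 5.16% of goblet-like cells (62.7 and 72.8%), and Ccl28 in 9.35 ± 0.159 and 11.8 ± 0.923% of TA-like cells (41.2 and 49.6%). For these 3 genes p was 0.1 (two-sided exact permutation test), the smallest p that 3 against 3 libraries allow, and 0.3 after adjustment over the members. At the same exact p of 0.1, Ccl25 shares were also higher in Fpr2VKO libraries in stem-like (23.1 and 33.3%), TA-like (28.3 and 36.8%) and unnamed cells (29.4 and 39.4%). So they were in goblet-like (8.95 and 14.2%), enteroendocrine-like (3.34 and 11.4%) and tuft-like cells (9.31 and 17.0%). In Paneth-like and T cell-like cells they were lower. The Ccl6 difference of 4.84 points fell to 1.87 points without VKO 2 and to 0.517 points at 5000 UMIs (exact p = 1), and p for Ccl28 was 0.3 and 0.8 at 1000 and 5000 UMIs in the same exact test. For the other 6 genes p was 0.5 to 1 in the same exact test. At other depths some of these reached the smallest exact p of 0.1: Il15 in enterocyte-like cells went from 0.189 points to 1.08 at 1000 and 1.85 at 5000 UMIs, and Ccl20 from 0.211 to 2.27 points at 5000 UMIs. The make-up of the goblet-like and TA-like classes differed between groups too. The Zg16 cluster was 22.9 to 25.2% of goblet-like cells in Fpr2f/f and 32.7 to 40.7% in Fpr2VKO libraries, and the Ern2 cluster 28.4 to 30.7 and 22.8 to 24.1%. The shallow Hist1h1b cluster, with the lowest mean Ccl28 level of the TA-like clusters, was 38.6 to 55.2% of TA-like cells in Fpr2f/f and 32.7 to 36.8% in Fpr2VKO libraries, and the deep Uhrf1 and Cdk1 clusters had the highest, 72.5 ± 9.41 and 70.9 ± 9.31 CPM. The part of make-up in these differences was not tested.

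The other genes of the pathway were taken from lists of other chemokines, other cytokines, receptors, IL-18 processing genes and inducers. Over epithelial cells edgeR called 0 of 8 other chemokines, 0 of 16 other cytokines, 0 of 4 receptors, 0 of 12 IL-18 processing genes and 0 of 18 inducers tested, and DESeq2 called 0 of each. At an unadjusted p under 0.05 in edgeR stood 3 cytokines and 1 inducer, beside 8.98% of all 16510 genes tested (0.0363% of them were called). Il33 and Ifnar2, named after their values were seen, were among them, as were Tnfsf10, a death ligand gene (log2 fold change 0.36 ± 0.15, edgeR adjusted p = 0.512), and Tnf (-0.42 ± 0.19, adjusted p = 0.539). List medians were between -0.09 (other chemokines) and 0.03 (receptors), beside -0.0033 for all genes. Casp1 (0.07 ± 0.12), Pycard (0.05 ± 0.13), Nfkbia (0.19 ± 0.13) and Irf1 (-0.04 ± 0.11), which encodes an interferon-induced transcription factor, had adjusted p-values of 0.695 to 0.927 in edgeR.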

How the data were processed

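Ileal crypt cells were dissociated with TrypLE, sorted by EpCAM and captured on a MobiNova-100. The authors made the deposited matrices of raw UMI counts per gene and barcode with MobiVision 2.1 (mm10, per the submitters' processing notes, which also name Seurat 4.0.0). All steps from these counts on were done here. Barcodes with at least 1000 UMIs, 500 genes and at most 20% mitochondrial UMIs were kept, and predicted doublets were removed at 0.8% per 1000 cells. Cells were clustered on 2000 genes and 30 aligned principal components (leidenalg 0.10.2, resolution 1, Python 3.11.15). Clusters were named from marker lists, and a cluster that failed the marker rule stayed unnamed. Counts were summed per library and class and tested with the quasi-likelihood test of edgeR 4.0.16 (R 4.3.3, TMM, filter on low counts, Benjamini-Hochberg adjustment over all genes tested at 0.05). A class needed 20 cells in a library to enter a test and 15 to give a level. DESeq2 1.42.0 was an alternative. Shares of cells with a UMI were compared after thinning by exact permutation. The test was checked on simulated counts: over epithelial cells (16205 genes) it recovered 21.2, 57.6 and 90.8% of genes changed 1.5-, 2- and 4-fold, and 15.9% of its calls were false, above the nominal level. In enterocyte-like cells (11535 genes) it recovered 16.4, 70.8 and 93.8%, with 9.30% of calls false. Named genes were all 9 members and, of each other pathway list, every gene called in any comparison (there was none) and up to 4 with the highest mean CPM over epithelial cells. For likeness, the 3 genes with the highest r were named, over sums of at least 20 cells. The members and lists were chosen with earlier results of these data known.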

Additional observations from a re-analysis of the deposited data

Results flagged for a closer look

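B cell-like cells (12 from Fpr2f/f and 20 from Fpr2VKO libraries) entered no comparison. In them 6 members had more than 3 UMIs in at least 1 Fpr2VKO library, while no member had more than 1 UMI in an Fpr2f/f library. These members were picked by a rule applied to Fpr2VKO libraries only, of more than 3 UMIs and a CPM above the Fpr2f/f libraries. The contrast is therefore not a result about genotype, and the share of all genes that meet the rule is not given here. Ccl6 had 12 UMIs in VKO 3, of which 11 lay in 1 cell, and Ccl9 had 4 UMIs in VKO 3, all in 1 cell. Cxcl10 had 28 UMIs in VKO 2, all in 1 cell. Ccl25 had 8 UMIs in VKO 1 and 4 in VKO 2. Ccl28 had 5 UMIs in VKO 2, with 4 in 1 cell, and Il15 had 4 UMIs in VKO 2, all in 1 cell. All UMIs of these cells summed to 117734, 89876 and 34051 in VKO 1, 2 and 3 and to 30158 and 47866 in f/f 1 and 2, and f/f 3 had no such cell. The source of these UMIs was not tested.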

How the results depend on the processing

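Of 359 recomputed values 300 were labelled the same, 24 reversed and 35 moved. A fold change was the same if it kept its direction and side of the threshold, and a count if it stayed within a set ratio. A share of UMIs was the same if it stayed within the SD of the main value, and a difference in share of cells if it kept its direction. The 4 values for enterocyte-like clusters (0 members called in each) were labelled the same without a comparison. The count of members called over epithelial cells was 0 under all 17 alternatives, and that of members whose effect differed between classes was 0 under all 7. Genes called over epithelial cells (6) became 108 with DESeq2, 221 without the filter on low counts, 155 at a mitochondrial limit of 10% and 2 at 40%, and 1 to 76 when 1 library was left out (76 without f/f 1, 2 without f/f 2, 1 without VKO 1 and 3 without VKO 3). Members called within classes (1) became 2 without the filter, 0 at a mitochondrial limit of 10%, 4 without alignment of libraries (Ccl5 in Paneth-like and Ccl6, Ccl9 and Ccl25 in stem-like cells) and 3 at resolution 0.5, and 0 to 2 when 1 library was left out (0 without f/f 2, 2 without f/f 3). The count stayed 1 with DESeq2 and at 40%, but the pair changed. It was Ccl20 in enterocyte-like cells with DESeq2 and Ccl25 in stem-like cells at 40%. Shares of all genes called within classes under the alternatives are not given here, so these counts are not read as a result about the members. With the replicate block, 47 genes were called over epithelial cells and 2 members within classes (Ccl5 and Cxcl10, both in Paneth-like cells). Same-numbered libraries correlated at 0.018, 0.034 and 0.378 over epithelial cells, so the numbers were not taken to pair them, and not every library correlated best with its own number.

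At a mitochondrial limit of 10% the log2 fold changes over epithelial cells turned to 0.57 (Ccl9), -0.21 (Ccl25), -0.17 (Ccl28), 0.35 (Cxcl10), -0.30 (Il15) and -0.40 (Il18), and at 40% to 0.51 (Ccl5). Leaving out 1 library gave -0.17 to 0.0447 for Ccl9 and -0.0057 to 0.48 for Il18. The difference in share of T cell-like cells with a Ccl5 UMI (-1.29 points) turned to 2.81, 8.84 and 0.169 points with thinning to 1000 or 5000 UMIs or none, and that of Cxcl10 to -2.82 points at 5000 UMIs. Leaving out 1 library gave -1.92 to 3.78 points for Ccl9, -0.0299 to 0.645 for Ccl20, -0.932 to 2.13 for Cxcl10, -0.751 to 0.708 for Il15 and -1.23 to 8.04 for Il18. The cause of these changes was not tested. Tests within enterocyte-like clusters were added after seeing the data. Classes of few cells and members of few UMIs limit what could be detected.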
